A study of Ovis aries with 16 samples.

Results

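The hypothalami of fetal sheep that received estradiol and then a brief occlusion of the brachiocephalic artery (estradiol+BCO) were compared with those of untreated, sham-occluded fetuses (control). The 2 groups of 4 fetuses make up 8 of the 16 samples, grouped by their labelled treatment. The comparison was taken up with earlier results of these data known. All fetuses carried chronic catheters and were studied at 124 to 128 days of gestation, with term at 147 days. Estradiol was given at 250 ug per day for 5 days, the occlusion lasted 10 min and the hypothalamus was taken 1 h after its start, that is after 50 min of recovery. The control fetuses had a sham period of the same length and the same blood sampling. The remaining 8 fetuses had occlusion alone (BCO) or estradiol alone (4 each). Total RNA was measured on single-color Agilent sheep oligonucleotide arrays, 1 fetus per array, with 2 arrays of every group on each of 2 slides. Fetal sex is not given in the labels used here. RNA of the whole hypothalamus was measured, so fewer cells of a type and less RNA per cell cannot be told apart.

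The brachiocephalic artery of the sheep supplies the head and forelimbs, so its occlusion lowers blood flow to the fetal brain and unloads the arterial baroreceptors. The hypothalamus then drives pituitary ACTH through corticotropin-releasing hormone and vasopressin, a response that estradiol is known to enhance in the fetal sheep. FOS and related immediate early genes are transcribed within minutes of neural activation, and NF-kappa B and interferon signalling induce cytokines, chemokines and adhesion molecules when brain tissue or its vessels are stressed.

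The probes are 60 bases long and are shown as the scanner files list them. EGR1 and AGRP are each read by a pair of overlapping probes, and the letters the pair shares are in capitals, since overlapping probes are not independent readings of a gene.
EGR1, brighter probe: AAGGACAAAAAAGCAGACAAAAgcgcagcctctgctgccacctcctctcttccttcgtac
EGR1, dimmer probe: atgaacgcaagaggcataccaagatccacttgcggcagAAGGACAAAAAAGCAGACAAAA
AGRP, brighter probe: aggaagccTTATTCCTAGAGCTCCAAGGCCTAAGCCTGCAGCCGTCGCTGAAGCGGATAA
AGRP, dimmer probe: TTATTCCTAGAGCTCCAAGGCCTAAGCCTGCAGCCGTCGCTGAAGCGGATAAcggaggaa
The EGR1 pair shares 22 bases and the AGRP pair 52.

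IRF1, ICAM1 and NFKBIA, inflammatory genes at which the groups did not overlap, are each read by 1 probe. FOS is read by 4 probes, of which those shown share no run longer than 8 bases with each other. The second of them shares 59 bases with a probe that is not shown.
IRF1: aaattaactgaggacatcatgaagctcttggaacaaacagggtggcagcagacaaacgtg
ICAM1: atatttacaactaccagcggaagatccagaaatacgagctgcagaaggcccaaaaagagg
NFKBIA: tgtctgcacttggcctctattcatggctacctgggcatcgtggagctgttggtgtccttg
FOS, first probe: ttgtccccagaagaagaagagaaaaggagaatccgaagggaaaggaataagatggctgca
FOS, second probe: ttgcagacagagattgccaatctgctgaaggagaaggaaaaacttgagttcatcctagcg
The probes of lowest p in the whole comparison belong to sheep transcripts that have no gene name in the sources used here, and are given so that they can be matched elsewhere.
A_70_P032561: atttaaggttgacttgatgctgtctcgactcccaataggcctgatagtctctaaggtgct
A_70_P054141: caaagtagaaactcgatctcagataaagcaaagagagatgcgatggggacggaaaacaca

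Levels are the log2 processed signal of a probe minus the 75th percentile of its array, and differences are estradiol+BCO minus control on that log2 scale, with the standard error (SE) of the fit. Of 15008 distinct probes, 2071 failed a filter that asked for signal well above background on 4 or more arrays, and 12937 were tested. Of the tested probes 1318 carry a gene name, and they stand for 852 genes. The arrays had 77.3% to 86.4% of probes well above background. The slides differed at 858 of the tested probes (limma, adjusted p under 0.05), and each comparison was therefore made with slide as a block. AGRP, POMC, OXT, SST and GHRH were well above background on all 4 control arrays. These hypothalamic neuropeptides were thus detected in every control fetus, whereas no marker on the neuron or oligodendrocyte lists was measured by name.

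No probe passed an adjusted p of 0.05 in limma (0 of 12937, 0%), and the lowest adjusted p was 0.469. At an unadjusted p under 0.05, 890 probes differed (6.88%), 404 of them higher in estradiol+BCO (3.12%) and 486 lower (3.76%). The 4 estradiol+BCO arrays were all above the 4 control arrays at 211 probes (1.63%) and all below at 266 (2.06%), which makes 477 probes without overlap (3.69%). Over all tested probes 46.4% were higher and 53.6% lower, with a median difference of -0.02. The unnamed probe A_70_P032561 was higher by 0.88 ± 0.16 (SE; 0.34 with a normexp background) and A_70_P054141 by 1.01 ± 0.19 (adjusted p = 0.469 in limma for each). No difference between the groups described here is therefore a call after correction over all probes, and the genes below are those of lowest p by name and the members of gene lists. Where they are said to be higher or lower, the statement is of these arrays.

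IRF1, the interferon regulatory transcription factor, had the lowest p of the named genes that were higher in estradiol+BCO. Its level was -4.43, -5.00, -4.58 and -4.31 in control replicates 1 to 4 and -0.76, -1.86, -1.73 and -3.06 in estradiol+BCO replicates 1 to 4. The groups did not overlap, and the treated array nearest to the controls was replicate 4. The difference was 2.73 ± 0.57 (SE; 6.62-fold, adjusted p = 0.504 in limma), and leaving out any 1 of the 16 arrays gave 2.35 to 3.14. With a normexp background it was 2.07. Occlusion alone differed from control by 1.01 and estradiol alone by 0.96. The estimate for occlusion alone rests on 3 arrays because a flagged spot was left out. The combined difference departed from the sum of the single ones by 0.76, with a 95% interval of -1.03 to 2.55.

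FOS, the immediate early gene used most widely as a marker of neural activation, was higher at all 4 of its probes. At the brightest it read -0.94, 0.02, 0.41 and 0.08 in the controls and 0.60, 0.83, 0.71 and 1.75 after estradiol+BCO. Every treated array was above every control array, with control replicate 3 the nearest to them. The difference was 1.08 ± 0.27 (SE; 2.11-fold, adjusted p = 0.547 in limma), and at the other probes it was 0.90, 0.93 and 0.98. It was 1.17 within slide 1 and 0.98 within slide 2. Occlusion alone left FOS at a difference of -0.02 and estradiol alone at 0.49. Estradiol+BCO was above occlusion alone by 1.1 ± 0.27 (95% interval 0.52 to 1.68, adjusted p = 0.188 in limma), and the departure from the sum of the single treatments was 0.60, with an interval of -0.21 to 1.42.

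The other immediate early genes did not all share that direction. JUNB, which pairs with FOS proteins in the AP-1 factor, stood at -3.29, -3.31, -3.46 and -3.36 in the controls and at -3.28, -1.57, -1.67 and -2.86 after estradiol+BCO. The controls were tightly grouped and treated replicate 1 lay beside them, so that the difference of 1.01 ± 0.41 came from 3 of the 4 treated arrays. EGR1, a zinc finger factor induced by growth factors and synaptic activity, gave 2 answers. Its brighter probe differed by -0.03 ± 0.14. The dimmer, which was well above background on 2 of 4 control and 3 of 4 treated arrays, was higher by 1.54 ± 0.49 (0.34 with a normexp background). MYC was at -0.20 and JUND at -0.02. Of the 5 immediate early genes measured, 2 were higher and 3 lower, with a median of -0.02. The median was 0.76 when all probes of a gene were averaged.

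**Figure D1:**
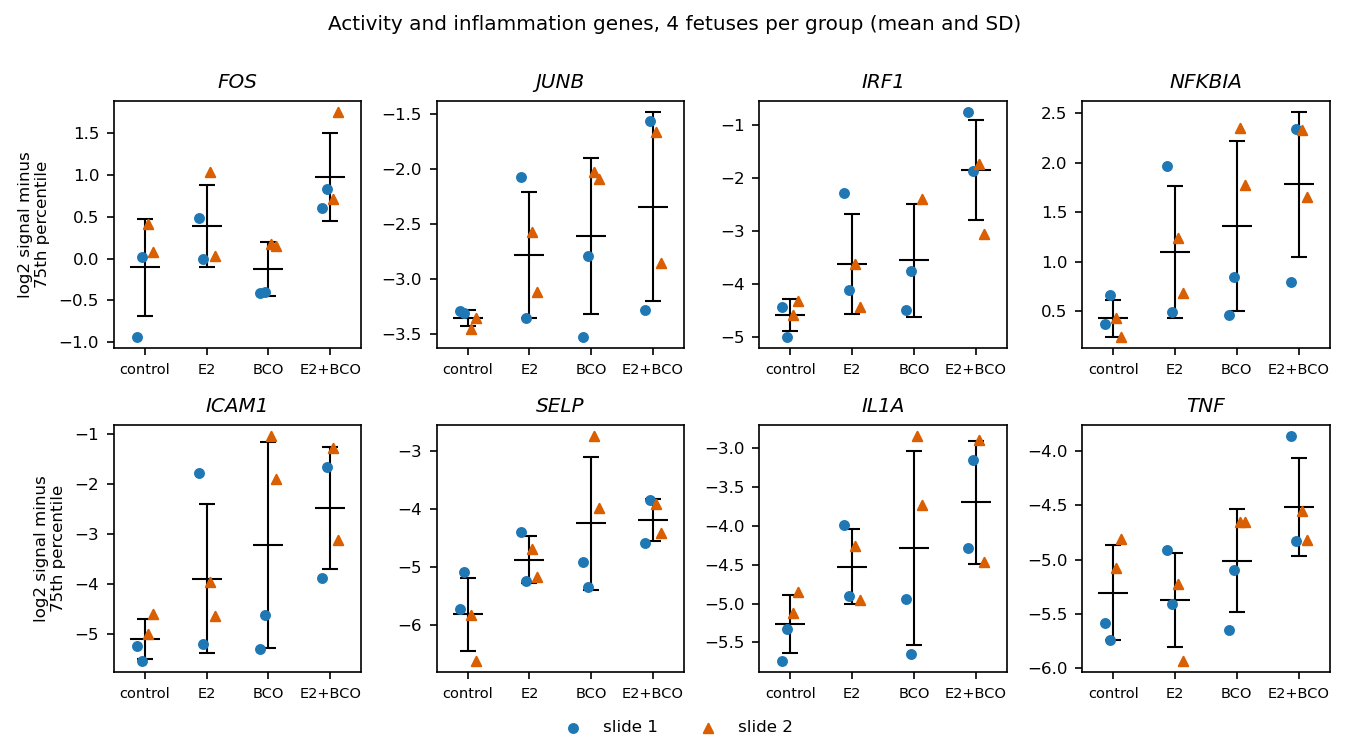
Level of 8 activity and inflammation genes (log2 signal minus the array's 75th percentile, brightest probe) in control, estradiol (E2), BCO and estradiol+BCO fetuses. Each point is 1 array, circles on slide 1 and triangles on slide 2, and bars give the mean and SD. FOS and IRF1 stood higher in every estradiol+BCO array than in every control array, whereas JUNB of treated replicate 1, at -3.28, lay with the controls.

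Genes of NF-kappa B signalling and of leukocyte adhesion were among those that stood higher. NFKBIA, the inhibitor that NF-kappa B induces as its own feedback, read 0.37, 0.67, 0.43 and 0.24 in the controls and 0.80, 2.34, 2.33 and 1.65 after estradiol+BCO. All treated arrays were above all controls, and treated replicate 1 was the lowest of them. The difference was 1.35 ± 0.43 (SE; 2.55-fold, adjusted p = 0.682 in limma). ICAM1, the endothelial ligand of leukocyte integrins, read -5.24, -5.54, -5.00 and -4.60 in the controls and -3.87, -1.67, -1.28 and -3.12 in the treated fetuses. Its groups did not overlap either, and the difference was 2.61 ± 0.88 (6.09-fold), at 2.61 within slide 1 and 2.60 within slide 2. With a normexp background it was 1.83. Occlusion alone differed from the same controls by 1.88 and estradiol alone by 1.20, and for NFKBIA the values were 0.93 and 0.67. The treated arrays were spread more widely than the controls, with SDs of 1.22 and 0.39.

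SELP, the P-selectin that platelets and endothelium expose to capture leukocytes, is read by 2 probes that share no run longer than 5 bases. The brighter gave -5.73, -5.08, -5.84 and -6.63 in the controls and -4.58, -3.85, -3.92 and -4.41 after estradiol+BCO. It was higher by 1.63 ± 0.47 and the dimmer by 1.78 ± 0.42, with all treated arrays above all controls at both. IL1A, the cytokine interleukin-1 alpha, was likewise higher at both of its probes. The brighter read -5.74, -5.33, -5.12 and -4.85 in the controls and -4.29, -3.15, -2.90 and -4.46 in the treated fetuses, a difference of 1.56 ± 0.49, and the dimmer differed by 1.68 ± 0.45. At the brighter probes occlusion alone gave 1.57 for SELP and 0.97 for IL1A, and estradiol alone 0.95 and 0.73. SELP and IL1A lie close to background, and a normexp background reduced the differences to 0.79 and 0.93 at the brighter probes and to 0.61 and 0.60 at the dimmer.

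Of the 19 measured genes of cytokines, chemokines and their receptors, 12 were higher and 7 lower, with a median of 0.10 against -0.02 over all probes. None passed the adjusted threshold, and 4 were higher at an unadjusted p under 0.05 (IL1A, TNF, IL1RN and IFNAR1, beside 3.12% of all probes). The median was 0.003 without control replicate 3 and 0.15 without control replicate 4, so the size of its distance from that of all probes depends on single arrays. TNF, the tumor necrosis factor, differed by 0.79 ± 0.30, with 1.32 within slide 1, 0.26 within slide 2 and 0.41 with a normexp background. IL6 differed by -0.16 and IL1B by 0.11, so the difference at IL1A did not extend to either. CXCL8, the neutrophil-attracting chemokine, read -5.16, -4.48, -5.24 and -4.76 in the controls and -5.25, -1.41, -0.69 and -2.39 after estradiol+BCO. Treated replicate 1 was thus the lowest of all 8 arrays and the other treated arrays were above every control. The difference was 2.48 ± 1.16. CXCL8 and the interferon-responsive genes in the next paragraph were singled out after their values were seen.

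The interferon-responsive genes stood high on 1 treated array. ISG15, a ubiquitin-like protein that interferon induces, read 0.11, -0.02, 0.35 and 1.37 in the controls and 7.14, 1.96, -0.35 and 0.48 after estradiol+BCO. Replicate 1 was far above the rest, and the difference of 1.86 ± 1.13 became 0.25 without it. MX1, an interferon-induced GTPase, read 5.57 in that fetus and at most 1.66 in the other treated arrays, and its difference of 0.96 ± 0.83 became -0.21. CXCL10, the interferon-induced chemokine, read 3.83 there and at most -1.30 elsewhere among the treated, and its difference of 2.10 ± 1.06 became 0.65. IRF1 was also highest in replicate 1, and differed by 2.35 without it. Replicate 1 was, on the other hand, the lowest treated array for NFKBIA, ICAM1, JUNB and CXCL8. The same fetus was thus at opposite ends of the treated group for these genes and for the interferon-responsive ones.

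Among the innate immune receptors and NF-kappa B genes, 12 of 16 were higher (46.4% of all probes), with a median of 0.22. Without treated replicate 1 the median was 0.030, and without treated replicate 2 it was 0.38. That median was 0.42 within slide 1, which holds replicate 1, and 0.07 within slide 2. TLR2, a receptor for bacterial lipoproteins, differed by 0.55 and CEBPB, a transcription factor of the acute phase response, by 0.49. Of the 6 adhesion genes, 4 were higher, with a median of 0.24. That median was 0.011 without control replicate 1, 0.40 without control replicate 2, 0.14 and 0.13 without treated replicates 1 and 4, and 0.37 without treated replicate 3. The integrin genes ITGA4 (-0.41), ITGB2 (0.20) and ITGAL (0.28), which leukocytes carry, were nearer to 0 than ICAM1 and SELP. The microglia and leukocyte markers gave 3 of 6 higher with a median of 0.02, and their mean level was -3.60 to -3.03 in control arrays and -3.57 to -3.26 in treated ones. CD3E, of T cells, differed by -0.56, CD14, of monocytes, by 0.18 and ITGAM by -0.15. The part of these cells in the differences was not tested. In the prostaglandin list PTGS2, the inducible cyclooxygenase, differed by 0.87 ± 0.57, at 1.81 within slide 1 and -0.08 within slide 2. PTGER3, a prostaglandin E receptor, differed by -0.39 ± 0.16.

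Among the hypoxia genes, the glucose carriers SLC2A3 and GLUT-1 stood higher, each read at the brighter of 2 probes. SLC2A3, the high-affinity neuronal glucose transporter, read 3.48, 3.61, 3.57 and 3.41 in the controls and 4.00, 3.83, 3.96 and 4.46 after estradiol+BCO. The groups did not overlap, with SDs of 0.09 in the controls and 0.27 in the treated fetuses. The difference was 0.55 ± 0.14 (SE; 1.46-fold, adjusted p = 0.61 in limma), against 0.33 for occlusion alone and -0.01 for estradiol alone. GLUT-1, the glucose transporter of the blood-brain barrier, differed by 0.28 ± 0.12, again with 0.26 for occlusion and -0.02 for estradiol. EPAS1, the hypoxia-inducible factor HIF-2 alpha, differed by 0.76 ± 0.17 at a dim probe that was well above background on 2 of 4 control arrays. Its second probe, which shares 59 of 60 bases, differed by 0.06 ± 0.18. VEGFA was at 0.24 ± 0.20, LDHA at 0.26 and HIF1A at 0.05. In all 13 of 19 genes of the hypoxia, angiogenesis and glycolysis list were higher (46.4% of all probes), 3 of them at an unadjusted p under 0.05 (3.12% of all probes). These 3 were SLC2A3, GLUT-1 and EPAS1, and EPAS1 was at 0.22 with a normexp background. The median was 0.10, with 0.058 without control replicate 4, 0.17 without treated replicate 1 and 0.19 without treated replicate 3.

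PDXK, the kinase that makes the active form of vitamin B6, read 0.62, 0.29, 0.36 and 0.40 in the controls and 1.08, 0.69, 0.82 and 1.1 after estradiol+BCO. It was higher in all treated arrays, by 0.50 ± 0.12 (1.42-fold, adjusted p = 0.526 in limma), while occlusion alone gave 0.15 and estradiol alone -0.09. Its departure from the sum of the single treatments was 0.44, with a 95% interval of 0.08 to 0.80 and an adjusted p of 0.48. GGCX, the carboxylase that depends on vitamin K, was higher by 0.35 ± 0.11 (0.17 within slide 1 and 0.53 within slide 2). Occlusion alone gave 0.39 for GGCX and estradiol alone 0.06. ATXN2L was higher by 0.81 ± 0.21 at the dimmer of its 2 probes, which share 59 of 60 bases. ATXN2L was well above background on 2 of 4 control arrays, and a normexp background left 0.13.

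The named genes that were lower with lowest p had smaller differences. AQP3, a water and glycerol channel, had the lowest p of any named gene. At that probe it read -5.48, -5.66, -5.79 and -5.20 in the controls and -7.22, -7.23, -6.52 and -6.61 after estradiol+BCO. The groups did not overlap. The difference was -1.36 ± 0.25 (SE, adjusted p = 0.469 in limma), or 2.57-fold lower, and -0.98 ± 0.27 at a second probe that shares 59 of its 60 bases. With a normexp background it was -0.48. Each single treatment also stood below control, by -0.86 for occlusion and -1.04 for estradiol.

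NTN4, the basement membrane guidance protein netrin 4, read 0.08, -0.29, 0.16 and -0.22 in the controls and -0.32, -0.62, -0.68 and -1.33 after estradiol+BCO. All treated arrays were lower, and the difference was -0.67 ± 0.18, while occlusion alone gave -0.09 and estradiol alone 0.02. RPL32, a ribosomal protein, differed by -0.67 ± 0.18, and EEF1A1, the elongation factor, by -0.28 ± 0.08 at a probe that was not its brightest (-0.18 at the brightest). GLUD1, the glutamate dehydrogenase of mitochondria, was at -0.51 ± 0.16 at its dimmest probe and -0.32 ± 0.15 at its brightest. SPRY-4, an inhibitor of growth factor signalling, was at -0.33 and TIMP3, a metalloproteinase inhibitor, at -0.32. SMO, the hedgehog signal transducer, was at -0.46 at its dimmer probe and -0.12 at its brighter. FGF10 was at -0.76 at the probe of lowest p and -0.35 at its brightest, and CLDN1, a tight junction protein, at -0.72 at its brightest and -0.14 at its other probe. With a normexp background SPRY-4 was at -0.19, SMO at -0.21, FGF10 at -0.29 and CLDN1 at -0.20 (probes of lowest p). Of the 20 genes of lowest p, 15 had groups that did not overlap (3.69% of all probes did not), which the choice by lowest p largely fixes, and 13 were well above background on all 8 arrays. All 20 kept their sign in each of the 28 alternative settings that gave them a value. Those settings reuse the same arrays, so the choice by lowest p largely fixes this too.

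**Figure D2:**
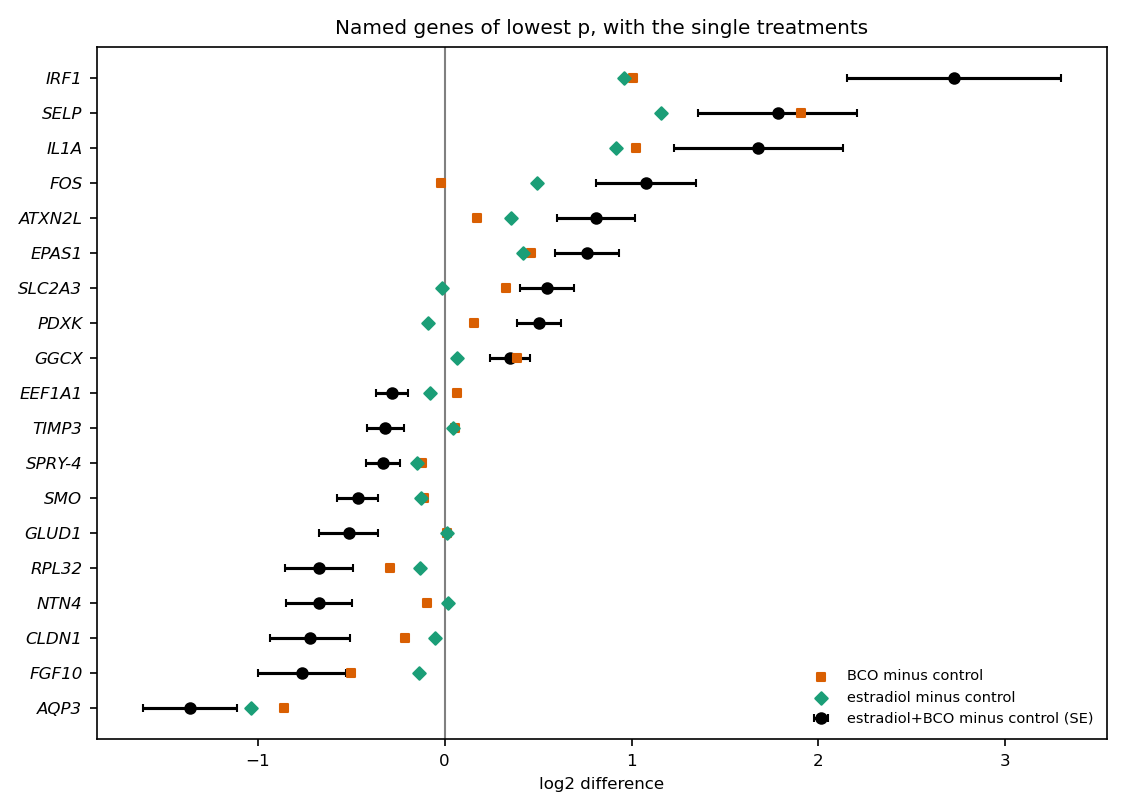
Log2 difference from control of 19 of the 20 named genes of lowest p, at the probe of lowest p, for estradiol+BCO (black, with SE) and, from the same control arrays, for BCO alone (squares) and estradiol alone (diamonds), 4 fetuses per group except IRF1 after BCO (3). IRF1 stood at 2.73 after both treatments against 1.01 and 0.96 after each alone, whereas SELP at 1.78 lay beside occlusion alone at 1.91.

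Neuropeptides of the arcuate and periventricular nuclei, which regulate feeding and growth hormone, were lower, mainly on slide 2. All 6 measured genes of the feeding and growth list were lower (53.6% of all probes), with a median of -1.31, and 2 of them (AGRP and NPY) at an unadjusted p under 0.05 (3.76% of all probes). The median was 0.22 within slide 1 and -2.55 within slide 2. AGRP, the appetite-stimulating melanocortin antagonist, read -1.19, -1.89, -0.55 and -0.53 in the controls and -3.31, -1.45, -6.57 and -5.80 after estradiol+BCO. Treated replicate 2 lay among the controls, replicate 1 stood below all of them, and replicates 3 and 4 were far below. The difference was -3.24 ± 1.02 (9.45-fold lower, adjusted p = 0.682 in limma), with -0.84 within slide 1 and -5.64 within slide 2, where alone it passed the threshold (adjusted p = 0.0291 in limma). The overlapping second probe differed by -3.41.

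NPY, expressed in the same arcuate neurons as AGRP, read 1.35, 0.91, 1.92 and 2.27 in the controls and 0.03, 1.45, -0.94 and -1.06 after estradiol+BCO. Its order over the treated arrays was close to that of AGRP, and the difference was -1.75 ± 0.68, at -0.40 within slide 1 and -3.10 within slide 2. POMC, the precursor of ACTH and of the appetite-suppressing alpha-MSH, read 0.90, 0.71, 1.34 and 1.99 in the controls and 0.40, 1.75, 0.01 and -0.69 in the treated. The difference of -0.87 ± 0.46 turned to 0.27 within slide 1 and was -2.01 within slide 2. GHRH, the growth hormone-releasing hormone, read -4.19, -2.07, -1.47 and -1.20 in the controls and -2.48, -1.29, -7.52 and -6.70 after estradiol+BCO. It differed by -2.26 ± 1.32, at 1.25 within slide 1, -5.78 within slide 2 and -1.33 with a normexp background. SST, the somatostatin of the periventricular nucleus, differed by -0.09 ± 0.39 and GAL, galanin, by -0.68 ± 0.50 (0.18 within slide 1 and -1.54 within slide 2). In occlusion alone the differences from the same controls were -4.80 for AGRP, -1.70 for NPY, -1.55 for POMC and -6.13 for GHRH, and in estradiol alone -1.02, -0.31, 0.03 and -0.44. The difference of estradiol+BCO from occlusion alone was 1.56 for AGRP, with a 95% interval of -0.64 to 3.75.

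Of the 3 transcription factors of hypothalamic nuclei measured, 2 showed a like split over the slides and ARNT2, of paraventricular and supraoptic neurons, did not (-0.40 within slide 1 and 0.12 within slide 2). ISL1, of arcuate neurons, differed by 0.06 within slide 1 and -1.37 within slide 2, and NR5A1, of the ventromedial nucleus, by 1.27 and -1.73, the latter at a probe well above background on 2 of 4 arrays in each group. The markers of the anterior pituitary, which lies below the hypothalamus, gave 6 of 8 lower with a median of -0.78 (-0.21 within slide 1, -1.53 within slide 2). That median was -0.031 without control replicate 4. The mean level of these markers was -4.87 to -2.63 in control arrays and -5.48 to -4.30 in treated ones. LHB, the brightest of them, with a control mean of 2.16, differed by 0.13, and GHRHR by 0.03. CGA, the shared subunit of pituitary glycoprotein hormones, read -0.74, -6.46, 1.40 and -2.51 in the controls and -6.10, -5.14, -9.38 and -6.25 after estradiol+BCO, a difference of -4.64 ± 2.07. PRL, prolactin, read -3.72, -3.45, -3.80 and 1.13 in the controls and -4.14, -5.01, -5.45 and -3.91 in the treated. Its difference of -2.17 ± 0.98 was -1.08 without control replicate 4. TTR, a choroid plexus marker, differed by -2.15 ± 1.02, and NEUROD1, of thalamus and telencephalon, by -0.24. The part of the dissected region in the neuropeptide differences was not tested.

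**Figure D3:**
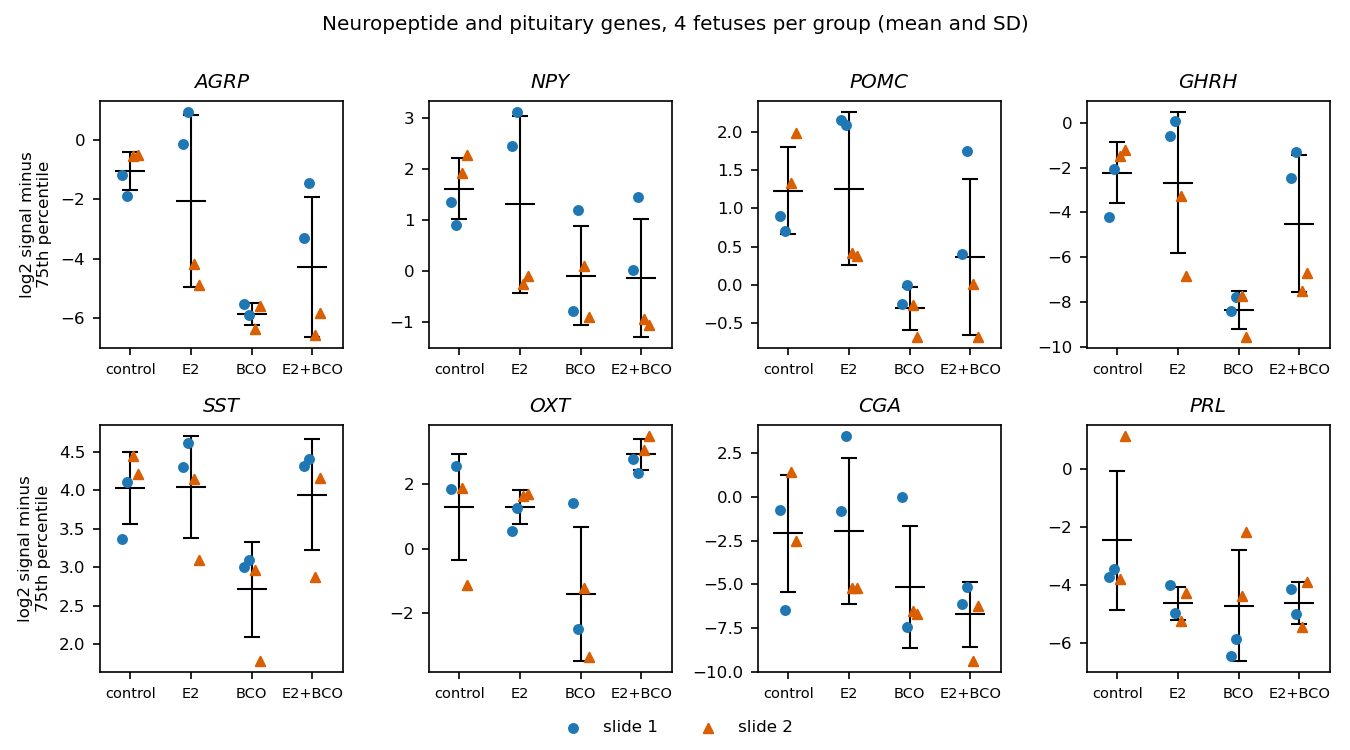
Level of 6 neuropeptide and 2 pituitary genes (log2 signal minus the array's 75th percentile, brightest probe) in the 4 groups, 1 point per array, circles on slide 1 and triangles on slide 2, with mean and SD. AGRP, NPY and GHRH of estradiol+BCO replicates 3 and 4, both on slide 2, stood below every control array. AGRP, NPY and POMC of replicate 1, on slide 1, did so too. OXT stood at 2.34 to 3.49 in all 4 estradiol+BCO arrays, a range that also held control replicate 2.

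OXT, the oxytocin precursor of paraventricular and supraoptic neurons, did not go with the arcuate peptides. It read 1.84, 2.58, 1.88 and -1.12 in the controls and 2.78, 2.34, 3.07 and 3.49 after estradiol+BCO. Control replicate 4 was low, and the difference of 1.63 ± 0.91 was 0.85 at its smallest when 1 array was left out. Within slide 1, where the groups overlapped, the difference was 0.35, and within slide 2 it was 2.90. Occlusion alone differed from control by -2.71 and estradiol alone by -0.01. Estradiol+BCO was above occlusion alone by 4.33 ± 0.91 (95% interval 2.38 to 6.29, adjusted p = 0.14 in limma), with no overlap of the arrays of these groups. The departure from the sum of the single treatments was 4.35 ± 1.28, with an interval of 1.58 to 7.11 and an adjusted p of 0.322. Of the 8 other neuropeptide genes, OXT included, 2 were higher and 6 lower (median -0.34). TAC3, the neurokinin B of estrogen-sensitive arcuate neurons, differed by -0.76 ± 0.40, ADCYAP1, which encodes PACAP, by -0.59 and GNRH1 by -0.45.

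Receptors and hormone-handling genes were mostly lower. Of 16 peptide hormone receptor genes 12 were lower (53.6% of all probes), with a median of -0.34 (-0.17 within either slide alone). HCRTR2, an orexin receptor, read -3.19, -3.32, -3.0 and -3.29 in the controls and -3.38, -3.56, -3.54 and -3.67 after estradiol+BCO, all lower, by -0.34 ± 0.16. HCRTR1 differed by -0.39. The furthest was TRHR, the receptor of thyrotropin-releasing hormone, which read -1.73, -1.86, -1.76 and -2.40 in the controls and -2.30, -1.71, -5.62 and -2.97 after estradiol+BCO. Treated replicate 3 was far below the rest, and the difference was -1.21 ± 0.90, at -0.37 without it. LEPR, the leptin receptor, differed by -0.82 ± 0.70 (-0.26 with a normexp background). In the stress axis list 5 of 6 were lower (median -0.35, beside 53.6% of all probes lower). HSD11B1, which regenerates active glucocorticoid, differed by -0.67 ± 0.30, STAR, the cholesterol carrier of steroid synthesis, by -0.61 ± 0.30 (-0.18 with a normexp background), and NR3C1, the glucocorticoid receptor, by -0.35 ± 0.19 (-0.84 within slide 1 and 0.15 within slide 2). PC1, the prohormone convertase that cuts neuropeptide precursors, read -1.90, -1.93, -2.22 and -2.19 in the controls and -2.34, -2.43, -3.49 and -2.37 after estradiol+BCO, all lower, by -0.60 ± 0.23. It was chosen after its values were seen.

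The sex steroid genes gave 6 of 7 lower with a median of -0.12. It was -0.23 without control replicate 1, and -0.20 and -0.18 without treated replicates 1 and 4. ESR1, the estrogen receptor alpha, read -0.52, 0.35, -0.39 and -0.17 in the controls and -0.80, -0.05, -1.52 and -0.79 after estradiol+BCO. The groups overlapped at treated replicate 2, and the difference was -0.61 ± 0.41. PGR, the progesterone receptor, a classical estrogen target, differed by -0.06 ± 0.40, and estradiol alone left it at -0.01. AREG, amphiregulin, was the member that was higher, by 0.58 ± 0.29. In the glutamate and GABA list only glutamate genes were measured, and 7 of 8 were lower (median -0.20). Among them GRIA4, an AMPA receptor subunit, was lower by -0.31 ± 0.14 with no overlap of the groups, and MGLUR1, a metabotropic receptor, by -0.33 ± 0.18.

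Of 10 cell cycle genes 8 were higher, with a median of 0.12 and AURKA, a mitotic kinase, at 0.28 the furthest. The median was -0.020 without treated replicate 1, 0.022 without control replicate 2, 0.076 without control replicate 1 and 0.18 without treated replicate 2. The apoptosis regulators divided 4 to 4 (median -0.01), with MCL1, a survival factor at 0.27 ± 0.11. Among the 5 chaperone and unfolded protein genes ATF4 was at 0.21, DDIT3 at 0.16 and XBP1 at -0.10. IGF2, which meninges and vessels express strongly, differed by -1.11 ± 0.78 and turned to 0.22 within slide 1. It stood in an insulin-like growth factor list with 5 of 9 higher. The monoamine genes ADRB3 (0.27), AANAT (-0.22) and ADRB1 (0.13) showed no common direction. The astrocyte markers had a median of -0.04, with GFAP at 0.32 ± 0.27 and FGFR3 lower in all treated arrays by -0.41 ± 0.13. The endothelial markers had a median of -0.10 (KDR -0.30, FLT1 0.28, ABCB1 -0.10). The fibroblast and meningeal markers had a median of -0.23 (COL1A2 -0.46, COL3A1 -0.40, FBLN1 -0.23, DCN -0.21). The brightest of that list, PTGDS, went the other way at 0.26. The red cell genes HBB and AHSP differed by 0.30 and 0.46. These values stand beside the differences of IRF1, ICAM1 and NFKBIA, and the part of changed cell numbers in them was not tested.

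**Figure D4:**
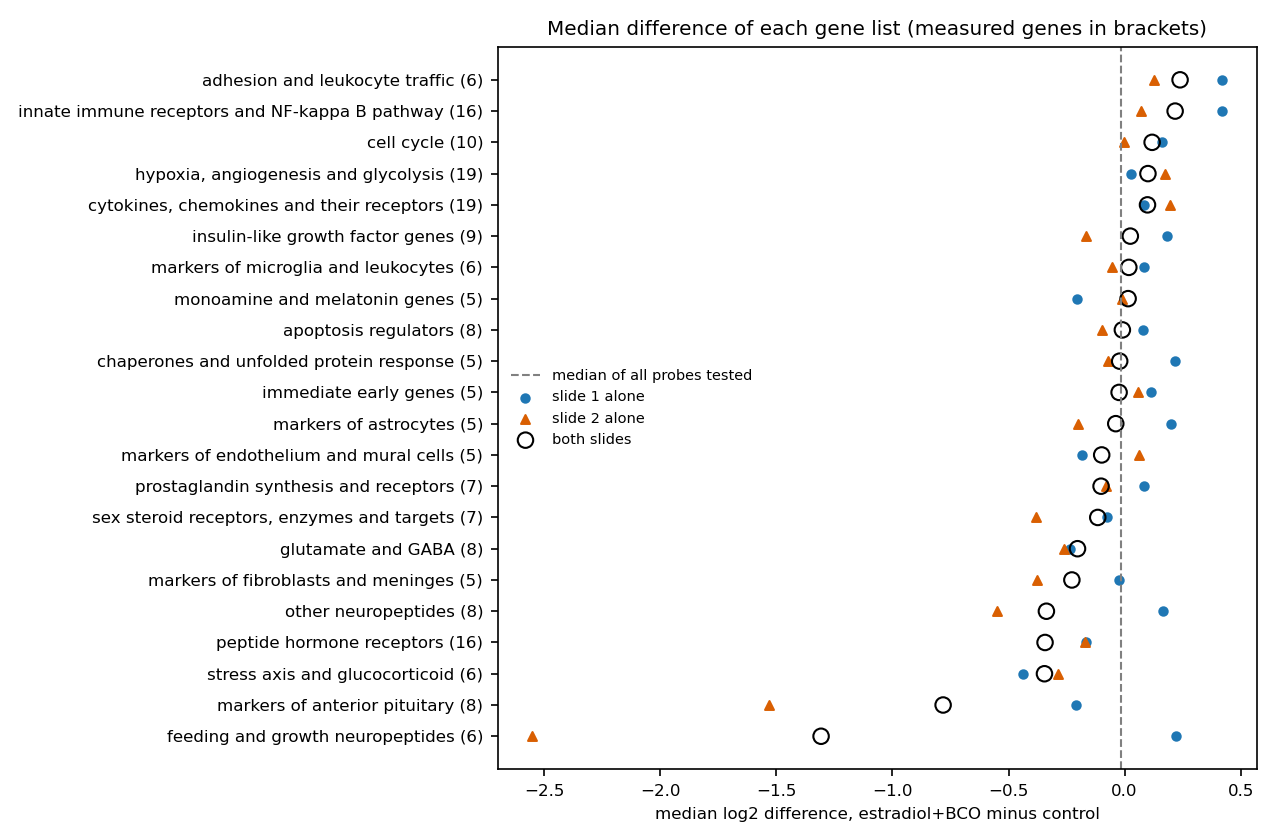
Median log2 difference, estradiol+BCO minus control, of each gene list with at least 4 measured genes (number in brackets), over both slides (open circles) and within slide 1 (filled circles) and slide 2 (triangles). The dashed line is the median of all tested probes, -0.02. The feeding and growth neuropeptides stood at 0.22 within slide 1 and -2.55 within slide 2, and the anterior pituitary markers at -0.21 and -1.53.

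The combined treatment was also set against each single one, in the same fit. Against occlusion alone no probe passed the threshold (0 of 12937, 0%, with 1463 or 11.3% at an unadjusted p under 0.05). Against estradiol alone 1 probe did (0.00773%, with 1153 or 8.91% at an unadjusted p under 0.05), the unnamed A_70_P055401, which fell by 0.96 on the log2 scale (-0.96 ± 0.11, adjusted p = 0.0129 in limma). The combined difference departed from the sum of the single ones at 3 unnamed probes (0.0232%, with 1104 or 8.53% at an unadjusted p under 0.05), A_70_P005946, A_70_P036801 and A_70_P055401, in each case downward. A_70_P055401 averaged -1.78 ± 0.15 (SD, n = 4) in control, -1.45 ± 0.21 after occlusion, -1.19 ± 0.17 after estradiol and -2.16 ± 0.14 after both. The single treatments were thus above control and the combination below it, and the departure was -1.30 ± 0.16 (adjusted p = 0.0177 in limma). Its difference from control itself, -0.38 ± 0.11, did not pass (adjusted p = 0.682 in limma). No named gene passed either test. With 1 array left out, the calls numbered 0 to 3 against estradiol alone and 0 to 5 for the departure from the sum, and which probes these were was not compared.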

How the data were processed

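Total RNA (500 ng, RNA integrity numbers 7.4 to 8.4 per the labels) was labelled with Cy3 and scanned by the authors with Agilent Feature Extraction 10.1.1.1 (per the file headers), 1 array per fetus. The authors deposited the processed signal intensity of each spot, and a table of log2 values that equal the log2 processed signal minus the array's median. From the deposited intensities, flagged outlier spots were dropped, log2 was taken, each array's 75th percentile (signal 2021 to 2904) was subtracted and spots of a probe were averaged. Array number limits precision. Differences were fitted with limma 3.58.1 in R 4.3.3 over all 16 arrays, with group and slide as terms, 2-sided, and Benjamini-Hochberg adjustment over 12937 probes; 2071 dim probes were removed. The labels do not state the authors' test. The p-values set each difference against the spread between fetuses within groups, pooled over all 16 arrays. With 1 array per fetus, that spread includes the variation between arrays. Genes were named from the files and RefSeq names (assembly ARS-UI_Ramb_v3.0); 8 conflicting probes stayed unnamed. A gene's brightest probe stands for it in lists. Named genes were the 10 higher and 10 lower of lowest p (at that probe), the 3 of lowest p in each list of at least 4 genes, and a fixed panel (OXT, AGRP, POMC, NPY, GHRH, SST, FOS, JUNB, EGR1, ESR1, PGR, PTGS2, VEGFA). Some genes that meet these rules are not reported here. Other list members named were chosen after their values were seen. The comparison, the lists and the panel were chosen with earlier results of these data known. Alternatives changed the background, scaling, filter, block, slides, samples and arrays left out. Scripts were tested on simulated data.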

Additional observations from a re-analysis of the deposited data

Results flagged for a closer look

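In 9 of 174 groups of 4 arrays examined for the named genes, 1 array stood apart from the other 3 by Dixon's test, and chance flags about 1 group in 20. PRL in control replicate 4 stood at 1.13, far above the other controls. SST in estradiol+BCO replicate 3 stood low at 2.88. ADCYAP1 in control replicate 4 was high at 4.42, PTGDS and CD3E in control replicate 2 were high at 6.37 and -2.42, and BAX in control replicate 1 was high at -1.23. Among the treated arrays, ATF4 in replicate 1 was high at 0.945, GJA1 in replicate 4 was high at -1.62 and ATXN2L in replicate 3 was high at -6.17.

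The effect of occlusion differed between estradiol-treated and untreated fetuses at 3 unnamed probes, tested as the departure of the combined difference from the sum of the single ones. It was -1.03 ± 0.14 at A_70_P005946, -1.08 ± 0.14 at A_70_P036801 and -1.30 ± 0.16 at A_70_P055401 (SE, adjusted p = 0.0177 in limma for each).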

How the results depend on the processing

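Estradiol+BCO against control gave 0 probes past the threshold under every alternative except slide 2 alone, which gave 3 (AGRP, NPY at its dimmer probe and the unnamed A_70_P008216). The number at an unadjusted p under 0.05 was 429 in slide 1 alone and 649 to 1200 with 1 array left out. Of the 87 named gene values, 68 kept their sign throughout, and list medians moved beyond the spread between fetuses for 11 of 22 lists. Each slide alone holds 2 fetuses per group, and the cause of the differences between slides was not tested.

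Against occlusion alone, slide 2 alone gave 13 calls, and 692 (slide 1 alone) and 951 (normexp) probes had an unadjusted p under 0.05; leaving out 1 array gave 0 to 6 calls, with 6 without BCO replicate 1 or replicate 2 and 2 without BCO replicate 4. Against estradiol alone there were 0 calls in slide 1, slide 2 and with the replicate block, 2 when probes had to be well above background on all 16 arrays, and 498 at an unadjusted p under 0.05 in slide 1. Leaving out 1 array gave 0 to 3 calls: 3 without BCO replicate 2 or 3, 2 without estradiol+BCO replicate 3, and 0 without estradiol+BCO replicate 1 or 4 or estradiol replicate 2 or 3. The departure from the sum gave 1 call without the slide block, 0 in either slide, 1 with normexp, and 581 at an unadjusted p under 0.05 in slide 1. Leaving out 1 array gave 0 to 5 calls: 5 without BCO replicate 1, 1 without estradiol replicate 4, and 0 without control replicate 4, BCO replicate 3, estradiol+BCO replicate 2, 3 or 4, or estradiol replicate 2.

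List medians in slide 1 alone were 0.22 for feeding and growth neuropeptides, 0.17 for other neuropeptides, -0.17 for receptors, 0.22 for chaperones, -0.20 for monoamine genes, 0.20 for astrocytes and -0.21 for anterior pituitary. In slide 2 alone they were -2.55 for feeding and growth neuropeptides, -0.17 for receptors, -0.38 for sex steroid genes and -1.53 for anterior pituitary. Normexp gave -0.17 for receptors, quantile normalization 0.24 for monoamine genes, and averaging all probes 0.76 for immediate early genes. Probes well above background on all 16 arrays gave 0.91 for adhesion genes and -1.21 for anterior pituitary. With 1 array left out, medians ranged from -0.36 to -0.055 for other neuropeptides, -0.34 to -0.17 for receptors, -0.24 to 0.15 for prostaglandin genes, -0.21 to 0.14 for monoamine genes, 0.003 to 0.15 for cytokines, 0.030 to 0.38 for innate immune genes, 0.011 to 0.40 for adhesion genes, and -1.24 to -0.031 for anterior pituitary (the last without control replicate 4).

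Single genes turned sign in slide 1 alone: POMC 0.27, XBP1 0.19, ADRB3 -0.20, ADRB1 -0.24, IGFBP2 0.055, IGF2 0.22, FLT1 -0.090, GHRH 1.25, SST 0.63, PGR 0.26, VEGFA -0.11 and GAL 0.18. In slide 2 alone they were NR3C1 0.15, IL1RN -0.37, PTGS2 -0.080, DDIT3 -0.012, CD3D 0.15, ABCB1 0.063, EGR1 0.060, ISG15 -0.80 and MX1 -0.79. With 1 array left out the ranges crossed 0 for DDIT3 (-0.027 to 0.28), ADRB1 (-0.080 to 0.30), CD14 (-0.033 to 0.35), SST (-0.41 to 0.22), EGR1 (-0.11 to 0.046) and PGR (-0.32 to 0.27).

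Fetuses with the same replicate number shared a slide, and the correlations of their deviations were 0.183, 0.0784, 0.168 and 0.125. Fetuses of different number on the same slide gave 0.172, -0.0018, 0.197 and 0.0607. Since 1 same-number value was under 0.1 and the labels name no pairing, the numbers were not taken as pairs. The fit with the replicate number as a block gave 0 probes past the threshold for estradiol+BCO against control, with 898 at an unadjusted p under 0.05. Signals near background limit many dim probes, among them those of SELP, IL1A, EPAS1, AQP3, ATXN2L, CLDN1, FGF10, SMO, STAR, LEPR and TNF, and of IL1RN (1.42, or 0.30 with normexp).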
